A study of Homo sapiens with 16 samples.

Results

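The BCL2 family decides whether a stressed cell permeabilises its mitochondria and dies. The genes described here are 10 members chosen by name, BCL2, BCL2L1, MCL1, BCL2L11, BMF, BBC3, PMAIP1, BAX, BAK1 and BIK, out of 42665 gene names on the array. Every probe annotated to them was read, which gave 15 probes, and 14 of these, covering all 10 genes, passed the filter on dim signals. The measurements were whole-genome one-colour microarrays of 16HBE, a human bronchial epithelial line immortalised with the SV40 large T antigen, a viral protein that binds p53 and RB. There were 4 groups of 4 arrays. 16HBE-WT cells carry the unedited MET receptor and were kept without HGF, and 16HBE-WT+HGF cells are the same cells given 20 ng/mL of hepatocyte growth factor for 24 h. 16HBE-ex14 cells were edited to skip exon 14 of MET, which removes a site through which the active receptor is taken down, and 16HBE-ex14+HGF cells are those cells given the same HGF. All groups had been starved of serum for 2 h beforehand. The edited cells on the arrays are a single clone, clone F, so the edit and the clone cannot be told apart. Titles of the 16HBE-WT+HGF samples carry another abbreviation, and their group was taken from the description field. The study separated its replicates by 1 week of culture, and the replicate numbers 1 to 4 used here follow the order of the samples, not weeks.

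In this family, BCL2, BCL2L1 (BCL-xL) and MCL1 are survival proteins that hold the death proteins in check. BAX and BAK1 are the effectors that form pores in the outer mitochondrial membrane. BCL2L11 (BIM), BMF, BBC3 (PUMA), PMAIP1 (NOXA) and BIK are BH3-only proteins, sensors that bind the survival proteins or the effectors and tip the cell towards death. Growth factor receptors such as MET are known to act on several of these sensors, through ERK, which marks BIM for degradation, and through AKT, which holds FOXO factors out of the nucleus.

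Each probe is an oligonucleotide of 60 bases read on the sense strand of the transcript, and a gene is seen only through the stretch its probe covers. BMF and BAX each have 2 tested probes, of which 1 was called and the other was not, so the first 30 bases of those probes are shown, with that of BBC3, 5′ to 3′ from the array annotation. Positions are on hg19.
BMF A_23_P379649, chr15:40380450-40380509, minus strand: ctggtggggacttttgagtcttgaggggat
BMF A_33_P3346801, chr15:40383984-40384043, minus strand: tgcacaaccttgctttgaatggagaagaga
BAX A_33_P3341144, chr19:49464454-49464513, plus strand: ctgcctctggaattgctcaagttcattgat
BAX A_23_P208706, chr19:49464904-49464963, plus strand: tgccttggactgtgtttttcctccataaat
BBC3 A_23_P382775, chr19:47724174-47724233, minus strand: agtctgggagtggggagggatggcccagcc
The BMF probes lie 3.53 kb apart and are both annotated to transcript variant 1. The BAX probes lie 450 bases apart, the first annotated to transcript variant beta and the second to transcript variant sigma. All 15 accessions given for the members' probes were found under the same symbol in the RefSeq gene table.

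A level is the log2 intensity of a probe minus the log2 of the 75th percentile of its array, so that 0 is the brightness which 1 probe in 4 exceeds. Levels compare arrays at 1 probe and not genes with each other. A probe was called different between groups at an adjusted p below 0.05 (limma, Benjamini-Hochberg over all 34600 probes tested) together with a fold change above 1.5, which is 0.585 on the log2 scale. The 75th percentile of the arrays lay between intensities of 139.5 and 262.8, and between 48.99 and 60.32% of probes were well above background. Arrays lay on 2 slides, each with 8 arrays and 2 of every group. All 6 epithelial markers (EPCAM, CDH1, KRT8, KRT18, KRT19 and KRT5) were above background on all 16 arrays; KRT5, a basal cell keratin, went from 2.62 ± 0.30 in 16HBE-WT to -2.26 ± 0.35 in 16HBE-ex14+HGF (SD, n = 4). Of 8 markers of fibroblasts, endothelium and leukocytes, COL1A2, DCN and PECAM1 were below background on all 16 arrays, LUM was above it on the 8 wild-type arrays alone, and COL1A1, CDH5, PTPRC and CD3E were above it on all 16 with group means between -3.73 and -1.36. LUM, a proteoglycan of connective tissue, thus moved with the genotype, with means of -2.94 ± 0.55 in wild-type cells and -3.52 ± 0.53 after their HGF treatment, against -6.60 ± 0.49 in edited cells and -7.00 ± 0.20 after theirs (SD, n = 4), and its part in the genotype differences was not tested. The MET probe lies outside exon 14 and does not check the edit; its levels differed by 0.03 to 0.16 and were not called. Fewer cells of a type and less RNA per cell cannot be told apart in these samples.

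HGF was followed by a lower signal at BMF A_23_P379649 in 16HBE-ex14 cells and by no called change of any member in 16HBE-WT cells. The other BMF probe gave 0.25 with HGF in 16HBE-ex14 cells and was not called. For the difference of HGF responses between the genotypes, 0 of the 14 probes and 0% of all probes were called. Of the 14 probes, 1 was called lower and 0 higher after HGF in 16HBE-ex14 cells, where 2% of all probes tested were called in either direction and 0.957% lower. In 16HBE-WT cells 0 of the 14 were called by limma, 0 reached an unadjusted p below 0.05, and 0% of all probes were called (4.9% had an unadjusted p below 0.05). Between the genotypes without HGF, 1 probe was called higher and 1 lower, where 9.4% of all probes were called, 4.51% higher and 4.88% lower. With HGF the numbers were again 1 higher and 1 lower, where 10.8% of all probes were called, 5.32% higher and 5.52% lower. The called probes in the comparison without HGF were BAX A_33_P3341144 and BMF A_23_P379649, and they were the called probes with HGF as well. The median difference over the 14 probes lay between -0.09 and 0.03 in the 4 comparisons of 1 group with another.

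**Figure D1:**
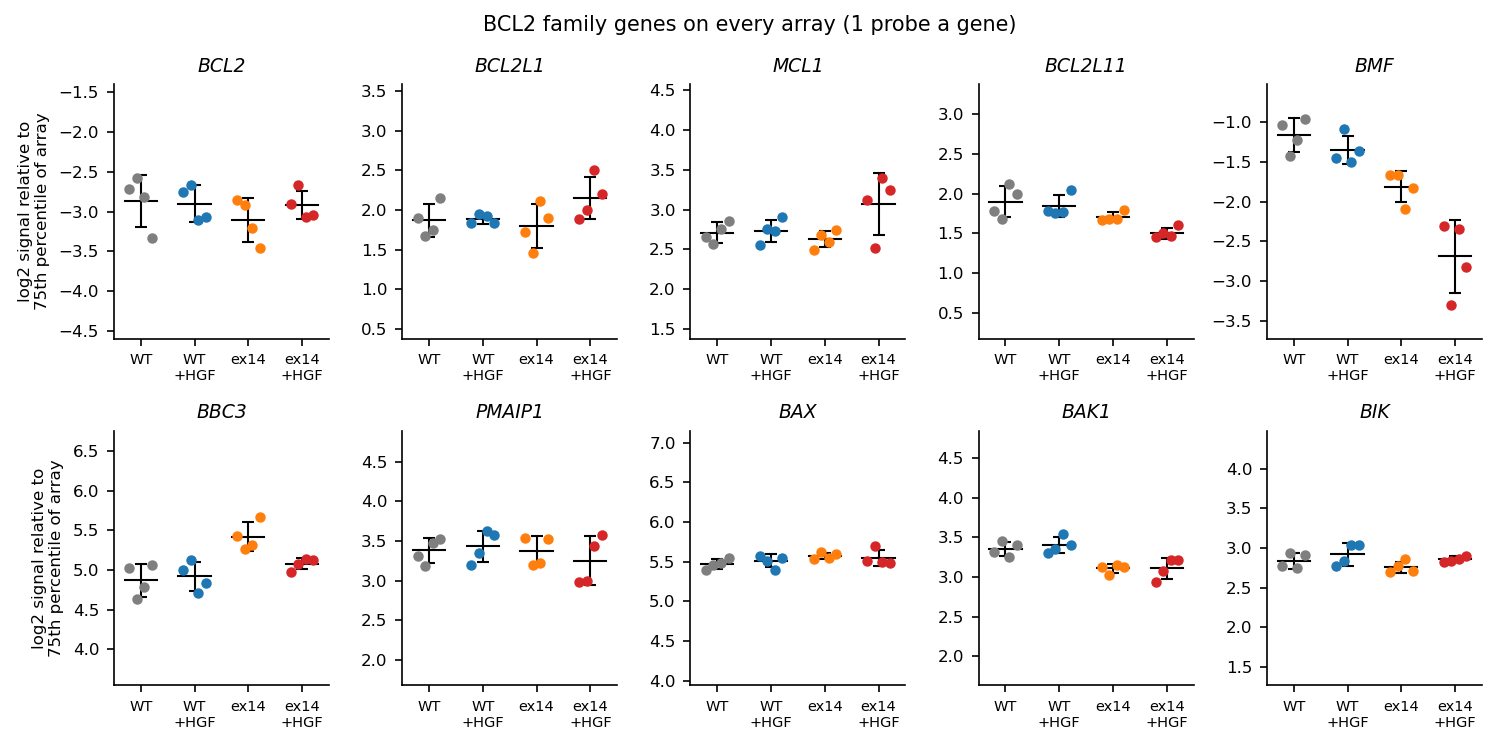
Levels of the 10 genes on every array, 1 tested probe a gene (the brightest), as log2 signal relative to the 75th percentile of the array; points are arrays, bars the mean and SD of 4. Each panel spans 3.2 log2 units and has its own origin. BMF runs from a mean of -1.16 in 16HBE-WT to -2.69 in 16HBE-ex14+HGF, and 16HBE-ex14 arrays of BBC3 stand above the other groups.

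BMF, a sensor known for binding to motor complexes of the cytoskeleton until released, gave the widest range among the tested probes of the family. At A_23_P379649 the 16HBE-WT arrays read -1.03, -1.42, -1.22 and -0.96 (replicates 1 to 4). The 16HBE-WT+HGF arrays read -1.45, -1.09, -1.5 and -1.36. The 16HBE-ex14 arrays read -1.67, -1.67, -2.09 and -1.83. The wild-type groups overlapped, and every 16HBE-ex14 array lay below every wild-type array. With HGF the edited cells read -2.31, -3.30, -2.35 and -2.82, so that each of these 4 arrays lay below each of the other 12. The signal was above background on all 16 arrays.

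In 16HBE-ex14 cells the signal of BMF A_23_P379649 fell by 0.88 log2 units with HGF (SE 0.20, adjusted p = 0.0257), a 1.84-fold difference. In 16HBE-WT cells the difference was -0.19, with a 95% confidence interval from -0.61 to 0.23 (adjusted p = 1). The response to HGF differed between the genotypes by -0.69 (95% confidence interval -1.29 to -0.10), with an unadjusted p of 0.0254 in limma and an adjusted p of 0.988. The difference of responses was thus not called, and 0% of all probes were called in that comparison (4.62% had an unadjusted p below 0.05). Within slide 1 the HGF difference in 16HBE-ex14 cells was -1.13, and within slide 2 it was -0.63. The call was lost in 12 of 34 alternative settings, among them without 16HBE-ex14 replicate 1 (adjusted p = 0.0669), replicate 2 (0.0908) or replicate 4 (0.0722), and without 16HBE-ex14+HGF replicate 2 (0.0549) or replicate 4 (0.0810), and the adjusted p ranged up to 1. Background correction by normexp, another way to take off the local background, moved the difference to -0.38, and averaging both BMF probes moved it to -0.31 (adjusted p = 0.643).

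Between the genotypes the BMF signal was lower in the edited cells with and without HGF. Without HGF it fell by 0.65 (SE 0.20, adjusted p = 0.0312), a 1.57-fold difference. With HGF it fell by 1.34 (SE 0.20, adjusted p = 0.000242), a 2.54-fold difference. The comparison with HGF was called in 33 of 34 alternative settings, the exception being slide 1 alone (-1.53, adjusted p = 0.0597), with -1.16 on slide 2 alone. Normexp made it -0.73 and averaging both BMF probes -0.77, both still called. The comparison without HGF was called in 20 of 34 and was lost when arrays were scaled to their median (-0.52, adjusted p = 0.136) or to the E1A spike-in probes (-0.48, adjusted p = 0.152), after normexp (-0.43, under the fold limit), with both BMF probes averaged (-0.43, adjusted p = 0.279), and, among others, without 16HBE-WT replicate 1 (adjusted p = 0.0813), 3 (0.0534) or 4 (0.0811) and without 16HBE-ex14 replicate 3 (0.0931) or 4 (0.0662). In the order of mean levels, 16HBE-WT (-1.16 ± 0.21) and 16HBE-WT+HGF (-1.35 ± 0.18) did not differ beyond their spread, and 16HBE-ex14 (-1.81 ± 0.20) and 16HBE-ex14+HGF (-2.69 ± 0.46) followed (SD, n = 4).

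At the other BMF probe no difference was called. A_33_P3346801 was dim, with group means between -3.66 and -3.21, and it was above background on 15 of 16 arrays; the lowest signal well above background had a median of -4.405. Its arrays read -3.26, -4.54, -2.83 and -3.21 in 16HBE-WT and -4.13, -3.94, -2.57 and -3.00 in 16HBE-ex14+HGF. The 4 differences lay between -0.21 and 0.25 and their confidence intervals were wide, from -0.63 to 1.14 for HGF in 16HBE-ex14 cells. The difference between the probes was tested on each array by subtracting them. With HGF the first probe was 1.15 lower relative to the second in 16HBE-ex14 than in 16HBE-WT cells (two-sided exact permutation test over 70 assignments, p = 0.0857, adjusted p = 0.129 over 6 such tests of BMF and BAX). For HGF in 16HBE-ex14 cells the probes differed by -1.14 (exact p = 0.0857, adjusted p = 0.129). The smallest p this design allows is 0.0286, and that the BMF probes give different answers was not shown.

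BAX, the effector that moves from the cytosol to the mitochondrion, was higher in the edited cells at 1 of its 2 probes. At A_33_P3341144 the 16HBE-WT arrays read 0.14, 0.22, 0.51 and 0.68, and the 16HBE-WT+HGF arrays 0.23, 0.33, 0.39 and 0.64. The 16HBE-ex14 arrays read 0.81, 0.97, 1.25 and 0.96, and the 16HBE-ex14+HGF arrays 0.69, 1.13, 1.16 and 0.99. Every array of the edited cells lay above every wild-type array, though 0.69 and 0.68 are close. The signal rose by 0.61 without HGF (SE 0.15, adjusted p = 0.0097) and by 0.60 with HGF (SE 0.15, adjusted p = 0.0099), which is 1.53-fold and 1.51-fold and just past the fold limit.

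For HGF this probe gave -0.01 in 16HBE-ex14 cells (95% confidence interval -0.32 to 0.31) and 0.01 in 16HBE-WT cells (-0.31 to 0.32). The brighter BAX probe A_23_P208706 is printed at 10 spots on every array, which agreed to a median SD of 0.03. It read 5.39, 5.46, 5.48 and 5.55 in 16HBE-WT and 5.53, 5.62, 5.54 and 5.59 in 16HBE-ex14 cells. Its differences between genotypes were 0.10 (95% confidence interval -0.07 to 0.27) without HGF and 0.04 (-0.13 to 0.20) with HGF, and they were not called.

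Set against each other on each array, the first BAX probe was 0.51 higher relative to the second in 16HBE-ex14 than in 16HBE-WT cells (two-sided exact permutation test, p = 0.0286, the smallest this design can give, adjusted p = 0.0858 over 6 tests). With HGF it was 0.56 higher (exact p = 0.0286, adjusted p = 0.0858). All 4 arrays of each edited group lay above all 4 of the matching wild-type group in this measure. With 6 tests and this smallest p the BAX tests could not reach an adjusted p of 0.05 on their own, so the adjusted value says nothing of the size of the difference. The pairs were chosen because 1 probe was called and the other was not, so the tests restate those calls and no conclusion is drawn from them. The BAX call of the first probe fell away in 8 of 34 settings without HGF and in 9 of 34 with HGF, since the fold then came to lie under 1.5 or the adjusted p above 0.05. Leaving out 16HBE-WT replicate 1 or 2 or 16HBE-ex14 replicate 3 gave 0.53 to 0.55 without HGF, and leaving out 16HBE-WT+HGF replicate 1 or 2 or 16HBE-ex14+HGF replicate 2 or 3 gave 0.54 to 0.57 with HGF. Averaging both BAX probes gave 0.35 without HGF (adjusted p = 0.0221) and 0.32 with it (adjusted p = 0.0351), under the fold limit. Within the slides the differences were 0.71 and 0.51 without HGF and 0.63 and 0.56 with it.

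**Figure D2:**
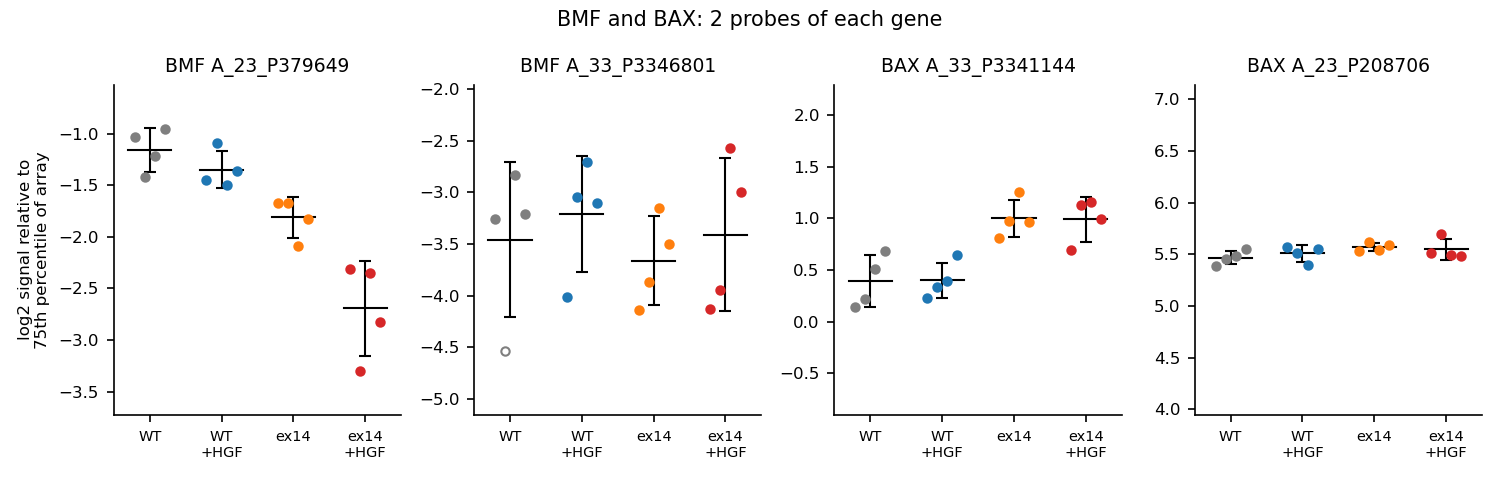
Levels of both BMF and both BAX probes on every array, as log2 signal relative to the 75th percentile of the array; points are arrays (open where not above background), bars the mean and SD of 4. The panels share a span of about 3.2 log2 units. At BMF A_23_P379649 and BAX A_33_P3341144 the arrays of the genotypes do not overlap with or without HGF, and at the other probe of each gene they overlap.

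BBC3, the PUMA sensor and a classical p53 target that binds every survival protein of the family, read highest in 16HBE-ex14 cells without HGF. Its 16HBE-WT arrays read 5.03, 4.63, 4.78 and 5.06, and its 16HBE-WT+HGF arrays 5.00, 5.12, 4.71 and 4.83. The 16HBE-ex14 arrays read 5.43, 5.26, 5.31 and 5.67, and all 4 lay above the 12 arrays of the other groups. With HGF the edited cells read 4.98, 5.07, 5.14 and 5.13, within or just above the wild-type range.

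The difference between genotypes without HGF was 0.54 (SE 0.12, adjusted p = 0.00708), a 1.46-fold difference that passed the adjusted p and missed the fold limit. It passed both limits when arrays were scaled to their median (0.68) or to the E1A spike-in probes (0.71), after normexp (0.61), and without 16HBE-WT replicate 1 or 4 or 16HBE-ex14 replicate 2 (0.59 to 0.61). With HGF the difference was 0.16 (95% confidence interval -0.10 to 0.43). HGF in 16HBE-ex14 cells gave -0.34 (SE 0.12, unadjusted p = 0.0168 in limma, adjusted p = 0.206) with no overlap of the arrays, as was the case for 8.84% of all probes. HGF in 16HBE-WT cells gave 0.04, and the responses differed by -0.38 (unadjusted p = 0.0496, adjusted p = 1).

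No probe of the remaining sensors was called. BCL2L11, whose product BIM is the sensor most tied to withdrawal of growth factors, has 3 probes. A_24_P122921 read 1.78, 1.68, 2.12 and 2.00 in 16HBE-WT, 1.78, 1.76, 1.77 and 2.05 in 16HBE-WT+HGF, 1.67, 1.68, 1.68 and 1.80 in 16HBE-ex14, and 1.45, 1.5, 1.47 and 1.6 in 16HBE-ex14+HGF cells. The 4 arrays of edited cells with HGF lay below the other 12. Their difference from 16HBE-WT+HGF was -0.33 (SE 0.10, adjusted p = 0.0352), under the fold limit, and HGF in 16HBE-ex14 cells gave -0.21 (adjusted p = 0.406). Scaling to the array median brought the difference from 16HBE-WT+HGF to -0.24 (adjusted p = 0.268) and normexp to -0.25 (adjusted p = 0.0587). With slide as a block that difference was -0.33 (adjusted p = 0.0102). The other BCL2L11 probes, 39.54 and 47.19 kb from it on hg19, differed by -0.13 and -0.11 between genotypes with HGF (adjusted p = 0.647 and 0.481).

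PMAIP1, the NOXA sensor that pairs with MCL1, read between 2.98 and 3.62 over all 16 arrays, and its differences lay between -0.19 and 0.06 with no call. BIK, a sensor resident at the endoplasmic reticulum, read between 2.70 and 3.04, and its differences lay between -0.08 and 0.09. Their 95% confidence intervals in the comparison of genotypes without HGF were -0.33 to 0.33 for PMAIP1 and -0.27 to 0.10 for BIK.

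Of the survival genes, none was called in any comparison. MCL1, a short-lived survival protein, read 2.49, 2.68, 2.59 and 2.74 in 16HBE-ex14 and 3.12, 2.52, 3.40 and 3.25 in 16HBE-ex14+HGF cells. Replicate 2 of the latter lay inside the untreated range and the other 3 arrays above it. The difference was 0.45 (SE 0.16, unadjusted p = 0.0126 in limma, adjusted p = 0.176), and without that array it was 0.63 (adjusted p = 0.0129) and passed both limits. Scaling to the array median brought the MCL1 difference to 0.29 (adjusted p = 0.519). Within slide 1 it was 0.23 and within slide 2 it was 0.66, neither called. In 16HBE-WT cells HGF gave 0.02 (95% confidence interval -0.31 to 0.36). BCL2L1 read 1.72, 1.46, 2.11 and 1.90 in 16HBE-ex14 and 1.89, 2.00, 2.50 and 2.20 in 16HBE-ex14+HGF cells, and the groups overlapped. The BCL2L1 difference was 0.35 (unadjusted p = 0.0411, adjusted p = 0.319), and in 16HBE-WT cells it was 0.01.

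BCL2 itself was dim. Its probe annotated to transcript variant beta, A_33_P3355185, had group means between -3.11 and -2.87 and differences between -0.24 and 0.19 with no call. The probe annotated to transcript variant alpha, A_23_P352266, was above background on 1 of 4 16HBE-WT arrays, 2 of 4 16HBE-WT+HGF arrays and 0 of 8 arrays of edited cells. It was therefore not tested, and no fold is given for it. Which transcripts each probe can bind was not established here.

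BAK1, the effector that sits in the mitochondrial membrane, read lower on each array of edited cells, by a small step. Its arrays read 3.31, 3.45, 3.25 and 3.40 in 16HBE-WT, 3.30, 3.35, 3.54 and 3.40 in 16HBE-WT+HGF, 3.13, 3.03, 3.15 and 3.13 in 16HBE-ex14 and 2.94, 3.08, 3.22 and 3.21 in 16HBE-ex14+HGF cells. Every array of edited cells lay below every wild-type array. The differences were -0.24 without HGF (SE 0.09, adjusted p = 0.0692) and -0.29 with HGF (SE 0.09, adjusted p = 0.0328), and both were under the fold limit. Scaling to the E1A spike-in probes brought the first to -0.07 and the second to -0.18.

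**Figure D3:**
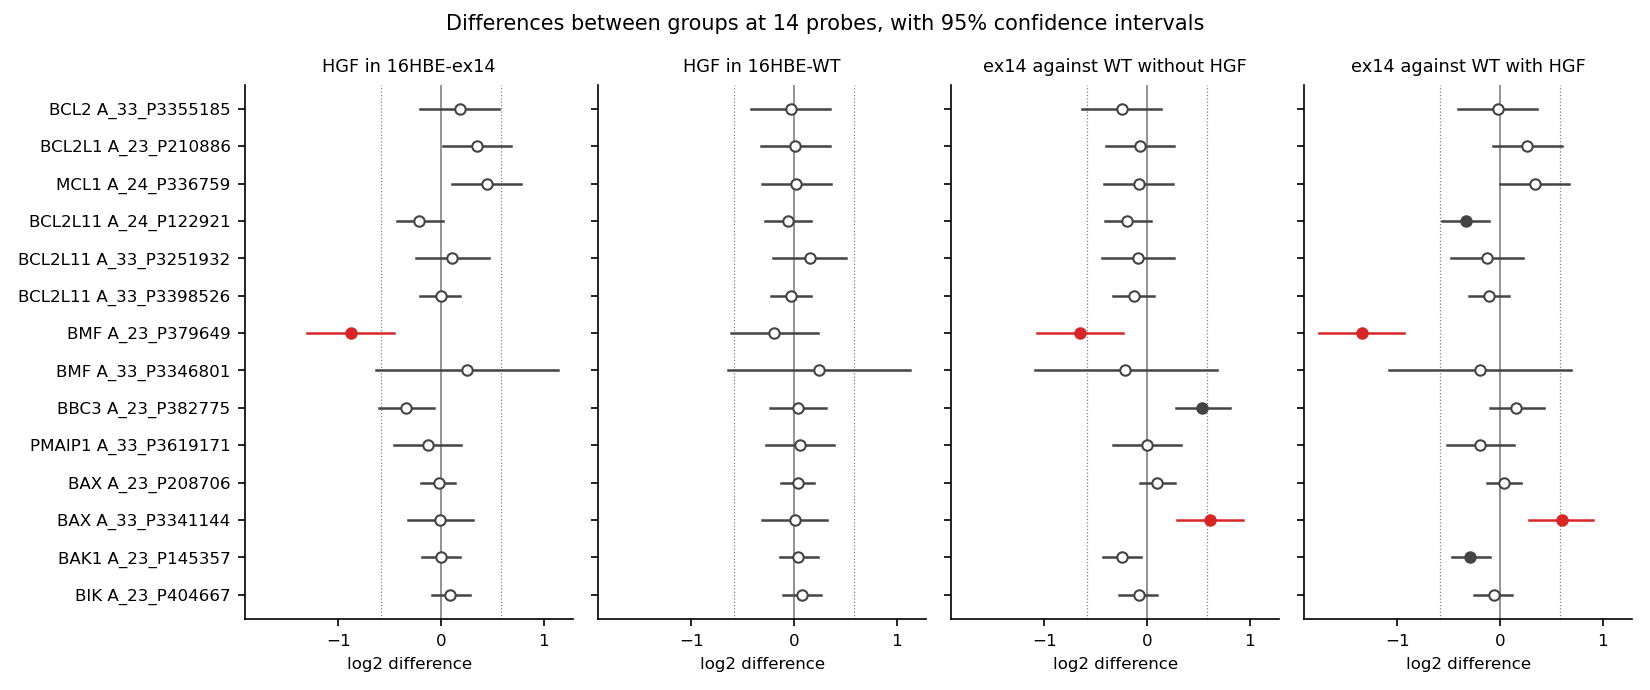
Log2 differences between groups at the 14 tested probes (x axis, dotted lines at the fold limit of 1.5) with 95% confidence intervals, in 4 comparisons. Filled points have an adjusted p below 0.05 and red marks those also past the fold limit, which are BMF A_23_P379649 in 3 comparisons and BAX A_33_P3341144 in 2.

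With the threshold on the adjusted p alone, BMF was the single probe of the family for HGF in 16HBE-ex14 cells, where 2.88% of all probes passed. In the same way 3 of 14 probes passed between genotypes without HGF (BMF, BBC3 and BAX), where 18.3% of all probes did, and 4 of 14 with HGF (BMF, BAX, BCL2L11 and BAK1), where 20.6% did. An unadjusted p below 0.05 was reached by 4 of 14 probes for HGF in 16HBE-ex14 cells (14.2% of all probes), by 4 of 14 between genotypes without HGF (30.3%) and by 5 of 14 with HGF (31.7%). The family was not tested as a set. After HGF in 16HBE-ex14 cells the arrays did not overlap at 3 of the 14 probes (BMF A_23_P379649, BBC3 and BCL2L11 A_24_P122921), as at 8.84% of all probes. The arrays of both genotypes did not overlap at 21.4% of all probes without HGF and at 23.9% with it. At 4 of the 14 member probes without HGF (BMF A_23_P379649, BBC3, BAX A_33_P3341144 and BAK1) and at 4 with HGF (BMF A_23_P379649, BAX A_33_P3341144, BAK1 and BCL2L11 A_24_P122921) they did not overlap.

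The neighbours of the genes on the chromosome were read as well. Within 1 Mb of BMF on hg19, 52 other genes had a median difference between genotypes without HGF of 0.02. The median was 0.18 for 50 genes around BBC3, 0.09 for 108 around BAX and -0.11 for 54 around BAK1. With HGF these 4 medians were -0.05, 0.12, 0.04 and -0.13. For 17 genes around BCL2L11 A_24_P122921 they were -0.26 without HGF and -0.31 with HGF, where 1 gene was called higher and 3 lower, beside -0.33 for the probe itself with HGF. For 10 genes around PMAIP1 they were 0.18 and 0.33, and 4 of the 10 were called higher with HGF, beside -0.19 for the PMAIP1 probe itself with HGF, which did not pass. Around BCL2, BCL2L1, MCL1 and BIK the medians between genotypes lay between -0.16 and 0.16. The part of a shift of the neighbours in the differences of the members was not tested.

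Other genes of the death pathway and of its regulation were read from 7 lists of 81 genes in all, of which 79 were tested. BCL2L14 was below background on all arrays, and MARCHF5 was not found under that name. HGF in 16HBE-ex14 cells called 1 of the 79 genes, which was higher, and HGF in 16HBE-WT cells called 0. Of all 26368 genes 2.11 and 0% were called. The 1 gene was DUSP6, a phosphatase of ERK and not a part of the death machinery. Between genotypes without HGF 3 were higher and 9 lower, 15.2% against 9.25% of all genes. With HGF 6 were higher and 8 lower, 17.7% against 10.7%. The lists were chosen with earlier results of these data known, so these shares do not show an excess. Calls of list genes are given under the main scaling of the arrays alone, not under the alternatives. The median over the 79 genes was 0.01 without HGF and -0.02 with it.

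Among other members of the BCL2 family, 1 of 12 tested was called in each genotype comparison. Of all genes, 9.25% were called without HGF and 10.7% with it. HRK, a sensor known mostly from neurons, rose from a mean of -2.93 ± 0.40 in 16HBE-WT to -0.65 ± 0.22 in 16HBE-ex14 cells (SD, n = 4), a difference of 2.28 (adjusted p = 5.38e-06). With HGF HRK was 2.14 higher in the edited cells (adjusted p = 7.36e-06), and HGF itself gave 0.65 in 16HBE-ex14 and 0.79 in 16HBE-WT cells, neither called. HRK was above background on all 16 arrays.

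Downstream of the mitochondrion, 2 of 13 genes were called lower in edited than in wild-type cells without HGF and 1 with it. The share of all genes called, in either direction, was 9.25% without HGF and 10.7% with it. CASP9, the initiator caspase of the apoptosome, went from 1.65 ± 0.05 in 16HBE-WT to 0.98 ± 0.07 in 16HBE-ex14 cells (SD, n = 4), a fall of 0.67 (adjusted p = 6.87e-05), and fell by 0.89 with HGF (adjusted p = 5.29e-06). HTRA2, a mitochondrial protease that removes inhibitors of caspases, fell by 0.65 without HGF (adjusted p = 0.00013) and gave -0.49 with HGF, under the fold limit. Of 48 genes within 1 Mb of HTRA2, 9 were called lower and 0 higher without HGF (median -0.16), and 5 lower and 1 higher with it (median -0.18). The median of 45 genes around CASP9 was -0.21 without HGF and -0.06 with it, and the part of these shifts in the differences of both genes was not tested. Of 7 inhibitors of apoptosis, BIRC7 fell by 0.99 without HGF (adjusted p = 0.0278) and by 0.86 with it (adjusted p = 0.049); its signal was dim, with a mean of -3.78 ± 0.37 and 3 of 4 arrays above background in 16HBE-ex14 cells (SD, n = 4).

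Of 14 genes of the death receptor pathway, 1 was called lower in edited than in wild-type cells without HGF. With HGF 2 were called higher and 1 lower in the edited cells. The shares over all genes, in either direction, were 9.25% without HGF and 10.7% with it. TNFSF10, the ligand TRAIL, fell by 1.56 without HGF (adjusted p = 0.017) and by 2.18 with it (adjusted p = 0.00187); it was above background on all 12 other arrays and on 1 of 4 of the 16HBE-ex14+HGF arrays, so the second value rests mostly on signals at background. TNFRSF10B, a TRAIL receptor, was 0.61 higher in edited than in wild-type cells with HGF (adjusted p = 0.046) and was not called without it. TNFRSF1A, the TNF receptor, was 0.59 higher in the edited cells with HGF (adjusted p = 0.000144) and 0.58 higher without it, which missed the fold limit. The 71 genes within 1 Mb of TNFRSF1A had a median between genotypes of 0.28 without HGF, with 13 called higher and 1 lower. With HGF their median was 0.26, with 8 called higher and 3 lower. The part of these shifts in the TNFRSF1A differences was not tested.

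Of 14 p53 targets, 4 were called lower and 1 higher in edited than in wild-type cells without HGF. With HGF 3 were called lower and 1 higher. Beside these counts, 9.25% of all genes were called in either direction without HGF and 10.7% with it. The p53 targets were not tested as a set. GDF15, a secreted stress factor, rose by 1.42 without HGF (adjusted p = 4.23e-05) and by 1.40 with it (adjusted p = 3.93e-05). Of 64 genes within 1 Mb of GDF15, 2 were called higher and 7 lower without HGF (median -0.15). With HGF 0 of these were called higher and 9 lower (median -0.13). SESN1, a stress protein that restrains mTORC1, fell by 1.53 and 1.05 (adjusted p = 0.000144 and 0.00209). CDKN1A, the p21 cell cycle inhibitor, fell by 0.90 without HGF (adjusted p = 0.0241) and gave -0.43 with it (adjusted p = 0.28). TP53INP1 fell by 0.84 and 0.72, and BTG2, an antiproliferative gene, by 0.63 and 0.75. BBC3, BAX and PMAIP1 are p53 targets too and are given above.

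Next, 13 transcription factors known to act on the family were compared between genotypes. DDIT3 (CHOP), a factor of the unfolded protein response, was 0.90 higher in the edited cells without HGF (adjusted p = 0.000738) and 0.73 higher with it (adjusted p = 0.00273). FOXO1 fell by 1.01 (adjusted p = 0.00157) and 0.65 (adjusted p = 0.0225). FOXO3 gave -0.49 without HGF, under the fold limit, and fell by 0.80 with it (adjusted p = 0.000161). The neighbourhoods of FOXO3 and SESN1 on chromosome 6 were lower as well, with medians without HGF of -0.52 over 22 genes and -0.45 over 23 genes within 1 Mb. The part of that in their differences was not tested. Among 6 tested genes for turnover of the family's proteins, DUSP6, a phosphatase of ERK and itself an ERK target, rose by 1.24 with HGF in 16HBE-ex14 cells (adjusted p = 0.031) and was 1.37 higher in edited than in wild-type cells with HGF (adjusted p = 0.00348). The means of DUSP6 were 1.48 ± 0.30, 1.84 ± 0.47, 1.97 ± 0.23 and 3.21 ± 0.63, given as the wild type without and with HGF and then the edited cells without and with HGF (SD, n = 4).

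**Figure D4:**
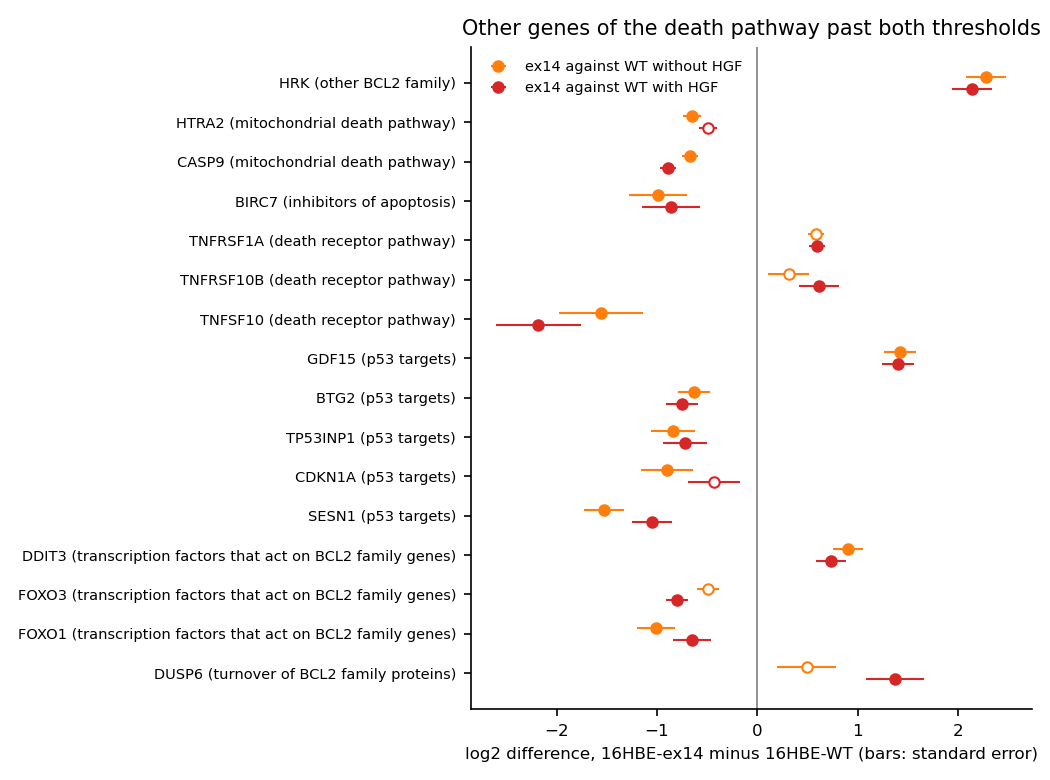
Log2 difference of 16HBE-ex14 minus 16HBE-WT (x axis) for the 16 genes of the lists called in either genotype comparison, without HGF (orange) and with HGF (red). Bars are standard errors, and filled points passed both limits under the main scaling, the only one shown. HRK stands at 2.28 and 2.14; TNFSF10 stands at -1.56 and -2.18, the second with 1 of 4 arrays of the edited cells above background.

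FOXO factors, AP-1, MYC-like E-box factors and SP1 are known to bind genes of this family, so 4 short motifs were searched on both strands of the 250 bases upstream of each start in the RefSeq promoter table (GRCh38.p14), which holds 8 of the 10 genes and does not list MCL1 or BIK. BMF and BCL2L1 have 2 starts each. GTAAACA (FOXO) was found in 2.98% of 35116 windows, TGANTCA (AP-1) in 6.57%, CACGTG (E-box) in 6.34% and GGGCGG (GC box) in 42.6%. GTAAACA stood upstream of BCL2L11 alone among the 8 genes, TGANTCA upstream of BBC3 alone, CACGTG upstream of BBC3 and, 4 times, of BAX, and GGGCGG upstream of 5 genes. No match of 1 motif overlapped a match of another in these genes. A window of each of the 3 sensors with the lowest adjusted p is shown, with matches in capitals; the second window of BMF held no match of the 4 motifs and is not shown.
BMF, chr15:40108880-40109129, minus strand: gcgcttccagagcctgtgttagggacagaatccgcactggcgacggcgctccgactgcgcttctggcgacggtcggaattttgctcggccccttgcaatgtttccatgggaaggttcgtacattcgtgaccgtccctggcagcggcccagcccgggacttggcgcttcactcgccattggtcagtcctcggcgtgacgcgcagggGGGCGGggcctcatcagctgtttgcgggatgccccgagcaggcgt
BBC3, chr19:47232668-47232917, minus strand: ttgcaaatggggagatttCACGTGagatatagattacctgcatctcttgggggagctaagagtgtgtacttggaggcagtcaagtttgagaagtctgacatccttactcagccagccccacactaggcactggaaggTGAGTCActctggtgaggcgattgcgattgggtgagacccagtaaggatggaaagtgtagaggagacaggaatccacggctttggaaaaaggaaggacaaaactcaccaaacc
BCL2L11, chr2:111120664-111120913, plus strand: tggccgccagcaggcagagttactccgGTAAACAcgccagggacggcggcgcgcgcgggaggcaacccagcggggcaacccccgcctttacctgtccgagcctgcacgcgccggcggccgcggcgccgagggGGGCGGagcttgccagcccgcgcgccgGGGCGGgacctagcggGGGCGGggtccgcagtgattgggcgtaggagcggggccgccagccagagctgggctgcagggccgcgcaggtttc
Capitals in BMF mark a GC box, those in BBC3 an E-box and an AP-1 motif, and those in BCL2L11 a FOXO motif and 3 GC boxes. A match of letters says nothing on binding in these cells.

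Across the 16 arrays, the genes whose levels ran most like BMF were YES1 (Pearson r = 0.959), CCDC80 (0.948) and TFPI (0.945). Those most like BBC3 were KRT80 (0.939), PATL1 (0.918) and EIF3A (0.915), and those most like BAK1 were ATP5IF1 (0.969), NDUFB6 (0.967) and SNX3 (0.964). For BAX, read at its brighter probe A_23_P208706, they were XPO4 (0.837), FAM160B1 (0.823) and LOC644285 (0.811). These values describe the 16 arrays, which share their groups and slides. Once group means were removed, r was 0.719 for YES1, 0.819 for KRT80 and 0.922 for ATP5IF1.

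The share of higher calls over the whole array moved with the scaling. Between genotypes without HGF, 48.0% of calls were higher with the 75th percentile, 71.8% with the array median, 76.5% with the E1A spike-in probes and 60.0% after normexp. With HGF the shares were 49.1, 66.0, 67.0 and 58.8%. For HGF in 16HBE-ex14 cells they were 52.2, 24.1, 34.6 and 52.8%. The median of all probes between genotypes without HGF shifted by 0.14, 0.17 and -0.11 under these 3 alternatives. In the edited cells BMF A_23_P379649 read lower and BAX A_33_P3341144 higher under all of them, but the BMF call without HGF was lost under each of the 3, and the BAX calls under normexp.

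**Figure D5:**
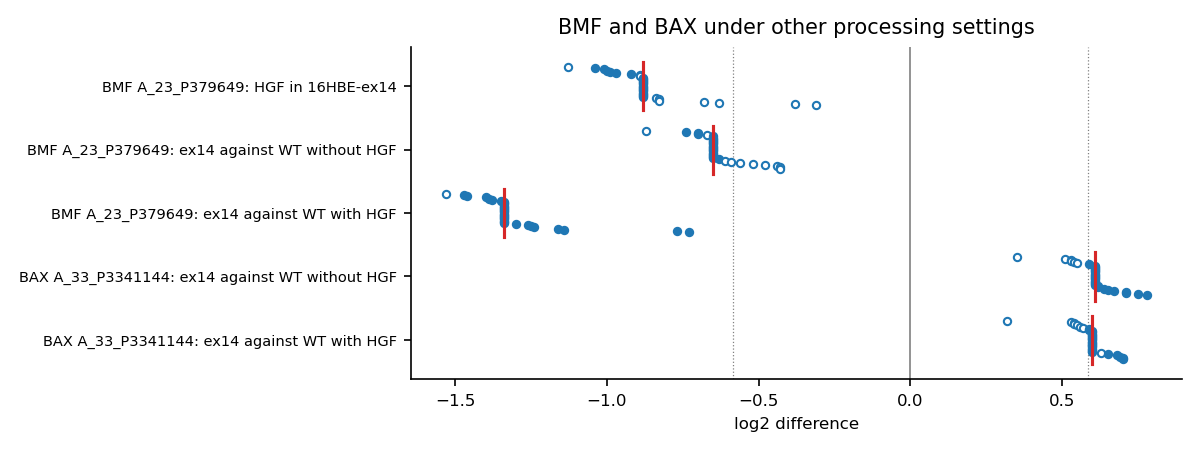
Log2 differences (x axis, dotted lines at the fold limit of 1.5) of BMF A_23_P379649 in 3 comparisons and BAX A_33_P3341144 in 2; red lines are the reported values, and points are 34 other settings each, filled where the call was kept. BMF with HGF ran from -1.53 to -0.73 and kept its call in 33 of 34.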

How the data were processed

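RNA of 16 cultures was hybridised as Cy3-labelled cRNA to one-colour Agilent arrays. The deposited intensity of a spot is the authors' Feature Extraction 10.7.3.1 processed signal, linear, background-subtracted and not scaled between arrays; the series' value table repeats these numbers at each of 62976 spots and added nothing. Positions on the array are hg19.

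Flagged outlier spots were left out, log2 was taken, values were set relative to the 75th percentile of non-control signals on their array, and repeated spots were averaged by probe. Of 58201 probes, 34600 well above background on at least 4 arrays were tested with limma 3.58.1 (R 4.3.3), 1 mean per group over 16 arrays, in 5 contrasts, with Benjamini-Hochberg adjustment within each. Called means an adjusted p below 0.05 and a fold above 1.5. The fit was tested on simulated data for HGF in 16HBE-ex14 cells (34564 probes, 200 changed). It called 64% of log2 changes of 1 and 98% of those of 2, with 5 unchanged probes among 167 called. The simulated noise was independent between arrays, without slide effects or genotype differences, so these shares hold for that setting only. The number of arrays limits the precision. Where a gene has more than 1 probe, the brightest tested probe stands for it. All members are named, with up to 3 called genes for each list and contrast; TP53INP1 lies outside that rule and was named after its values were seen. The 3 genes most correlated with a member are given for the 3 members of lowest adjusted p at any probe (BMF, BBC3 and BAX) and at the brightest probe (BAK1 in place of BAX). The members and lists were chosen with earlier results of these data known.

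Alternatives were normexp with an offset of 50, quantile, median and E1A spike-in scaling, looser and stricter signal filters, all spots kept, slide as a block, a replicate block of slide and row, each slide alone, a trended and robust prior, array weights, the compared groups alone, no fold limit, treat, adjustment over contrasts together, the mean over probes, and leaving out each array. The exact permutation tests of probe pairs (scipy 1.17.1), the neighbours on the chromosome and the motif search were chosen after seeing the data. Gene set tests were not run.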

Additional observations from a re-analysis of the deposited data

Results flagged for a closer look

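Among 56 sets of 4 arrays (14 probes in 4 groups), 3 held an array whose gap to the nearest other array passed Dixon's 95% critical value, where chance gives about 1 in 20. For BCL2L11 A_24_P122921, 16HBE-WT+HGF replicate 4 read 2.05 against 1.76 to 1.78, and 16HBE-ex14 replicate 4 read 1.80 against 1.67 to 1.68. For BAX A_23_P208706, 16HBE-ex14+HGF replicate 2 read 5.70 against 5.48 to 5.51. None of these probes was called in any comparison.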

How the results depend on the processing

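Of 34 alternatives (33 for the difference of HGF responses), none turned the direction of a BMF or BAX call. For HGF in 16HBE-WT cells and for the difference of responses the number of called members was 0 in all of them. For HGF in 16HBE-ex14 cells the count of 1 went to 0 under normexp, no filter on dim probes (adjusted p = 0.0536 for BMF), slide 1 only, slide 2 only, the compared groups alone (adjusted p = 0.127), treat and the mean over probes, and leaving out 1 array gave 0 to 1. Between genotypes without HGF the count of 2 went to 1 under normexp (BBC3, neither of the 2), no filter and adjustment over the contrasts together (BAX in both), to 3 with no fold limit (BBC3 added), and to 0 under slide 1 only, slide 2 only, treat and the mean over probes, and leaving out 1 array gave 0 to 3 (3 without 16HBE-ex14 replicate 2, with BBC3). With HGF the count of 2 went to 1 under normexp, slide 2 only, treat and the mean over probes, to 0 under slide 1 only and to 4 with no fold limit, and leaving out 1 array gave 1 to 2. Scaling to the array median or the E1A spike-in probes brought BMF without HGF to -0.52 (adjusted p = 0.136) and -0.48 (adjusted p = 0.152), and the count stayed at 2 with BBC3 in the place of BMF. Normexp, which called 1489 probes without HGF against 3252 and 1814 with HGF against 3749, brought BMF without HGF to -0.43 and BAX A_33_P3341144 to 0.54 and 0.53. Scaling to the array median or the E1A spike-in probes moves all probes of a comparison alike, and without HGF their median moved by 0.14 and 0.17. Normexp was run with an offset of 50, beside intensities of BMF A_23_P379649 between 20.51 and 91.12, and the part of the offset was not tested. The cause of the other moves was not tested, except that 1 slide holds 8 of 16 arrays.

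The replicate numbers follow the order of the samples. Arrays of the same slide and row had a mean correlation of deviations of 0.19 (lowest 0.03) and those of the same slide and other row of 0.21, against -0.20 across slides. The replicate block of slide and row left the counts at 1, 2 and 2, with adjusted p of 0.0409, 0.0421 and 0.000832 for BMF and of 0.00229 and 0.00229 for BAX, and slide as a block changed no call either. Transcripts under the background, such as BCL2 A_23_P352266, could not be compared.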
